A study of Mus musculus with 3 samples.

Results

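A set of 8 genes of the bone morphogenetic protein (BMP) pathway were examined: the ligands Bmp2 and Bmp4, the type I receptor Bmpr1a, the intracellular inhibitor Smad6, the pseudoreceptor Bambi, and the target genes Id1, Id2 and Id3. They were chosen by name and with their values known, because Bmp4 and Bmp2 differed in opposite directions after loss of Nr0b1, so their own differences between the groups are given as a description and not as a test. These 8 genes had 9 probes on the array, out of 55681 probes and 35019 gene names in all, and 7 of the 8 genes were detected, that is, had a probe called well above background by the scanner software on all arrays of 1 group or more, as did 22443 of all gene names. A list of 80 other genes of the same pathway (118 probes, with 67 genes detected by the same measure) was tested beside them. That list was also drawn up with earlier results of these data known, so its p-values and shares are not those of genes chosen blind.

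Mouse ES cells were profiled on 9 single-colour Agilent arrays, 3 per group, to follow gene expression after deletion of Nr0b1 (also called Dax1), an X-linked gene for an orphan nuclear receptor. Nr0b1 KO/Y ES cells (labelled Dax1 KO/Y) had carried the deletion over several passages. Nr0b1 fl-/Y+Tx ES cells (labelled Dax1 flox/Y + Cre 4days) had their Cre activated for 4 days. Nr0b1 fl-/Y−Tx ES cells (labelled Dax1 flox/Y) kept the gene. All were male cells derived from the EB5 subline of E14tg2a, and per the study's methods the deletion was made by a MerCreMer recombinase that 4-hydroxy tamoxifen (Tx) activates. The cells without Tx are therefore no control for Tx or for active Cre, and the sources used here do not say whether a group was 1 clone or whether feeder fibroblasts were present in the cultures taken for RNA. The study's text calls the replicates biological triplicates, without saying how they were separated, and the p-values below measure the spread between these arrays.

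BMPs are secreted ligands that bind a complex of type I and type II serine/threonine kinase receptors. The type I receptor phosphorylates Smad1, Smad5 and Smad9, which enter the nucleus with Smad4 and switch on targets, among them the Id genes. Id proteins bind E proteins, a class of basic helix-loop-helix transcription factors, and keep them off DNA. In mouse ES cells BMP signals, through Id genes, act with LIF to hold back neural differentiation, and Smad6, Smad7 and Bambi are feedback inhibitors of the same pathway.

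Stretches of promoter are shown for the members with a match to a searched motif, to give the letters before the start of the genes compared. Windows of 250 bases before to 50 bases after the transcription start were taken from RefSeq (GRCm38.p6), where 5 of the 8 members had one: Bmp4, Bmpr1a, Id2, Id3 and Smad6. Motifs searched were GGCGCC, a GC-rich element that Smad1 and Smad5 can bind, and GTCTAGAC, the palindromic Smad element. CACCTG, an E-box of the kind that E proteins bind, and AAGGTCA, a nuclear receptor element, were searched as well. Each was searched on both strands, the first and second reading the same on either strand, and no motif here overlapped another. Capitals mark the motif (for Bmp4 its reverse complement), and each sequence runs 5′ to 3′ on the strand of the gene.
Id2 (chr12:25096283-25096342, minus strand): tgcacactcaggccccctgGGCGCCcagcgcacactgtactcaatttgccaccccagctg
Bmpr1a (chr14:34502712-34502771, minus strand): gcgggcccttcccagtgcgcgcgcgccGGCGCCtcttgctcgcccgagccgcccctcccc
Smad6 (chr9:64022045-64022074, minus strand): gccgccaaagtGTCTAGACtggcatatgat
Bmp4 (chr14:46390814-46390873, minus strand): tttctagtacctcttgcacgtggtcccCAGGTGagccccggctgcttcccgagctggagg
GGCGCC lay at -231 in Id2 and at -198 in Bmpr1a, and it stands in 11.9% of all 32851 promoter windows. GTCTAGAC lay across the start of Smad6, from -4, and it stands in 0.213% of all windows. CACCTG lay at -177 in Bmp4 (20.2% of all windows). AAGGTCA (4.72% of all windows) was in none of the 5, and the Id3 window held none of the 4 motifs. A match is a run of letters and was not measured as a binding site.

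Signals are given as log2 of the processed signal minus the same array's 75th percentile, so that 0 is the level of that percentile. Levels of different probes are not set against each other. The deleted gene was checked first. Nr0b1 was at -6.37, -6.20 and -6.22 in KO/Y cells, at -2.58, -2.66 and -2.42 in fl-/Y+Tx cells and at 4.02, 4.18 and 4.10 in fl-/Y−Tx cells. Its probe (10 spots) was not well above background in KO/Y cells. This puts Nr0b1 at least 357-fold lower in KO/Y than in fl-/Y−Tx cells (adjusted p = 2.51e-10, limma), and at least 3.54-fold lower when KO/Y cells are set against fl-/Y+Tx cells (adjusted p = 1.40e-06). In fl-/Y+Tx cells it was 101-fold lower than in fl-/Y−Tx cells (adjusted p = 1.04e-08). Such a bound divides the mean of the brighter group by the dimmest detected signal on the arrays of the other one. The adjusted p-values of Nr0b1 belong to the differences as measured and not to the bounds, and were adjusted over detected probes.

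The arrays lay on 2 slides. Slide 2 held the 3 KO/Y arrays and 2 fl-/Y+Tx arrays, and slide 1 held the third fl-/Y+Tx array with the 3 fl-/Y−Tx arrays. KO/Y and fl-/Y−Tx arrays therefore never shared a slide. Within the shared slide, KO/Y over fl-/Y+Tx sets 3 KO/Y arrays against 2 fl-/Y+Tx arrays. For fl-/Y+Tx over fl-/Y−Tx it sets 1 fl-/Y+Tx array against 3 fl-/Y−Tx arrays. With the slide as a term, log2 fold changes in these comparisons are those within the slide. For KO/Y over fl-/Y−Tx, the slide term rests on 1 fl-/Y+Tx array against the other 2. Within slide 1, the single fl-/Y+Tx array is assumed to vary like the other groups. Detected probes numbered 28820 to 32516 on each array (51.8 to 58.4%), and no spot was saturated. Over all 22443 genes, the median log2 fold change was -0.06 for KO/Y over fl-/Y−Tx, 0.01 for KO/Y over fl-/Y+Tx and -0.06 for fl-/Y+Tx over fl-/Y−Tx.

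Of the 2 ligands, Bmp4 had its lowest signal and Bmp2 its highest in KO/Y cells, with fl-/Y+Tx cells between the other groups in both cases. The rule that chose the genes used this pattern. Bmp4 (NM_007554, probe at chr14:47003391-47003450, mm9) is the BMP most used in ES cell culture and is needed for mesoderm and germ cell formation in the embryo. Its signal was 3.25, 3.14 and 3.34 in KO/Y cells, 4.07, 3.98 and 3.97 in fl-/Y+Tx cells and 4.62, 4.58 and 4.56 in fl-/Y−Tx cells. Every KO/Y array lay below every fl-/Y+Tx array, and every fl-/Y+Tx array below every fl-/Y−Tx array. KO/Y cells averaged 3.25 ± 0.10, fl-/Y+Tx cells 4.01 ± 0.05 and fl-/Y−Tx cells 4.58 ± 0.03 (SD, n = 3 each). The log2 fold change was -1.34 ± 0.07 (SE, 2.53-fold) for KO/Y over fl-/Y−Tx, -0.76 (1.69-fold) for KO/Y over fl-/Y+Tx and -0.58 (1.49-fold) for fl-/Y+Tx over fl-/Y−Tx. A second Bmp4 probe (chr14:47003198-47003257, mm9), to the same transcript, was not well above background anywhere in the 9 arrays, so the difference in Bmp4 rests on 1 probe. In bulk RNA, fewer cells with the transcript and less transcript per cell cannot be told apart.

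Bmp2 (NM_007553, chr2:133388260-133388319, mm9) is the nearest relative of Bmp4 and is made by endoderm in the early embryo. Its signal was -0.11, 0.00 and 0.06 in KO/Y cells, -1.16, -1.03 and -0.84 in fl-/Y+Tx cells and -1.37, -1.28 and -1.38 in fl-/Y−Tx cells. The 3 groups did not overlap, and the gap between KO/Y and fl-/Y+Tx cells was wider than the gap between fl-/Y+Tx and fl-/Y−Tx cells. The log2 fold change was 1.33 ± 0.09 (SE, 2.51-fold) for KO/Y over fl-/Y−Tx, 0.99 (1.99-fold) for KO/Y over fl-/Y+Tx and 0.33 (1.26-fold) for fl-/Y+Tx over fl-/Y−Tx. With the slide as a term the last of these was 0.185 and that of Bmp4 was -0.52.

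Summed markers of 3 other cell types differed between the same groups. A single marker is said to rise or fall where its adjusted p was under 0.05 (limma). The summed signal of 10 detected endoderm markers (Gata4, Gata6, Sox17 and others, of 12 listed, with Afp not well above background throughout) was 6.55 to 8.54 times the 75th percentile in KO/Y cells, 2.93 to 3.41 in fl-/Y+Tx cells and 2.14 to 2.47 in fl-/Y−Tx cells. All 10 rose in KO/Y cells against either other group, and in fl-/Y+Tx over fl-/Y−Tx cells 3 rose (Gata6, Dab2 and Pdgfra) and 2 fell (Foxa2 and Hnf4a). Dab2 and Pdgfra held much of the sum at 4 days, Dab2 at 1.45 in fl-/Y+Tx and 0.973 in fl-/Y−Tx cells and Pdgfra, which is also on the mesoderm list, at 0.86 in fl-/Y+Tx and 0.573 in fl-/Y−Tx cells, in multiples of the 75th percentile. The sum of 16 fibroblast markers (Col1a1, Thy1, Dcn and others, 16 of 16 detected) was 671 to 708 in KO/Y cells, 569 to 597 in fl-/Y+Tx cells and 455 to 476 in fl-/Y−Tx cells. All 16 rose in KO/Y over fl-/Y−Tx cells, 10 of 16 in KO/Y over fl-/Y+Tx cells and 10 of 16 in fl-/Y+Tx over fl-/Y−Tx cells. Trophectoderm markers (8 of 9 detected, Elf5 not well above background throughout) summed to 19.5 to 20.9 in KO/Y cells, 6.21 to 6.59 in fl-/Y+Tx cells and 6.75 to 7.30 in fl-/Y−Tx cells. Krt8 (7.1) and Krt18 (9.02) held most of the sum in KO/Y cells, where Cdx2 was at 0.0857. In KO/Y over fl-/Y−Tx cells 7 of 8 rose, all but Tead4, and in KO/Y over fl-/Y+Tx cells 5 of 8 rose. In fl-/Y+Tx over fl-/Y−Tx cells 2 rose (Hand1 and Ascl2) and 4 fell (Krt8, Krt18, Tead4 and Krt7). Krt7 was well above background in KO/Y cells only and in neither of these groups, so nothing is read from its fall. The 9 ES cell markers, among them Pou5f1, Sox2 and Nanog, were all detected and summed to 551 to 669 in KO/Y cells, 659 to 708 in fl-/Y+Tx cells and 713 to 746 in fl-/Y−Tx cells. Dppa5a held most of these sums (440, 457 and 478 in the same order). In KO/Y over fl-/Y−Tx cells 4 of 9 fell (Sox2, Zfp42, Esrrb and Utf1) and 1 rose (Klf4). Pou5f1 was at -0.65 there and missed the threshold (limma, adjusted p = 0.0562). In KO/Y over fl-/Y+Tx cells 3 fell and none rose, and in fl-/Y+Tx over fl-/Y−Tx cells 1 fell and 1 rose. Mesoderm markers (5 of 8 detected, with Foxf1, Mesp1 and Mixl1 not well above background throughout) summed to 31.9 to 47.0 in KO/Y cells, 29.5 to 40.5 in fl-/Y+Tx cells and 40 to 41.3 in fl-/Y−Tx cells, with overlapping groups. Kdr held most of this sum (35.3 in KO/Y, 34 in fl-/Y+Tx and 39.2 in fl-/Y−Tx cells), so the sum says little about the others. Of the 5, T and Pdgfra rose in KO/Y over fl-/Y−Tx cells (log2 fold change 1.01 and 1.21) and none fell. A second Kdr probe (10 spots, well above background on all 9 arrays) was at 1.28 in that comparison and at 1.52 in fl-/Y+Tx over fl-/Y−Tx cells. The Kdr probe in the sum was at -0.15 and -0.21 in these comparisons. The part of these markers' cells in the levels of Bmp2 and Bmp4 was not tested.

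**Figure D1:**
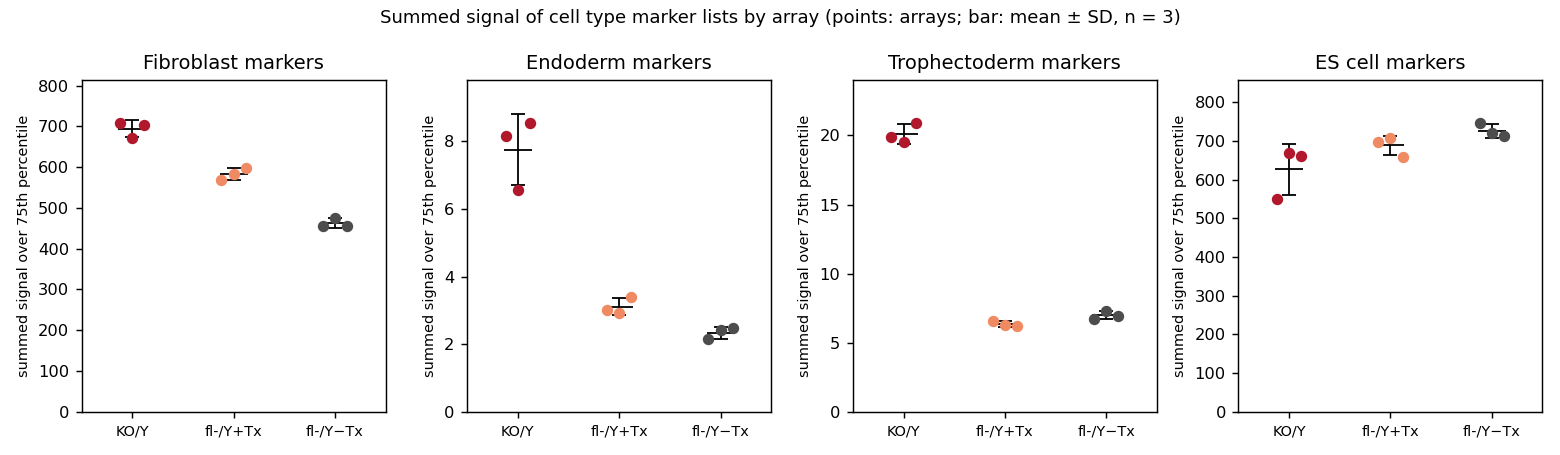
Summed signal of 4 marker lists, in multiples of each array's 75th percentile, with 1 point per array and the mean ± SD of 3 arrays for KO/Y, fl-/Y+Tx and fl-/Y−Tx cells (axes start at 0). Fibroblast markers lie at 671 to 708 in KO/Y, 569 to 597 in fl-/Y+Tx and 455 to 476 in fl-/Y−Tx cells, and endoderm markers at 6.55 to 8.54, 2.93 to 3.41 and 2.14 to 2.47 in the same groups.

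The type I receptor Bmpr1a (NM_009758, chr14:35224339-35224398, mm9), through which BMP2 and BMP4 signal, was at 1.10, 0.95 and 1.22 in KO/Y cells, 0.61, 0.74 and 0.98 in fl-/Y+Tx cells and 0.65, 0.71 and 0.79 in fl-/Y−Tx cells. KO/Y and fl-/Y−Tx arrays did not overlap, whereas 1 fl-/Y+Tx array reached the KO/Y range. The log2 fold change was 0.37 ± 0.11 (SE) for KO/Y over fl-/Y−Tx, 0.31 for KO/Y over fl-/Y+Tx and 0.06 for fl-/Y+Tx over fl-/Y−Tx. With the slide as a term the first was 0.13 and the last -0.10, and KO/Y and fl-/Y−Tx arrays shared no slide.

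The inhibitors gave no ordered pattern. Smad6 (NM_008542, chr9:63800980-63801039, mm9), which blocks the receptor-activated Smads of the BMP branch and is itself a BMP target, was at -0.53, -0.58 and -0.34 in KO/Y cells, -0.66, -0.50 and -0.40 in fl-/Y+Tx cells and -0.22, -0.47 and -0.34 in fl-/Y−Tx cells. All 3 groups overlapped. Its log2 fold change was -0.14 (95% interval -0.37 to 0.09) for KO/Y over fl-/Y−Tx, 0.03 (-0.20 to 0.26) for KO/Y over fl-/Y+Tx and -0.18 (-0.41 to 0.05) for fl-/Y+Tx over fl-/Y−Tx. The first of these was -0.35 and the last -0.32 with the slide as a term. Bambi, a pseudoreceptor that lacks the kinase domain, had 1 probe, which was not well above background anywhere in the 9 arrays, and no fold change is given for it.

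The 3 Id genes had their highest mean signal in KO/Y cells, but by less than either ligand differed. Id1 (NM_010495, chr2:152563083-152563142, mm9), the Id gene most often read as a sign of BMP signalling in ES cells, was at 3.30, 3.37 and 3.40 in KO/Y cells, 3.25, 3.21 and 3.26 in fl-/Y+Tx cells and 3.12, 3.24 and 3.21 in fl-/Y−Tx cells. The lowest KO/Y array was above all arrays of the other groups by a small step, and fl-/Y+Tx and fl-/Y−Tx arrays overlapped. The log2 fold change was 0.17 ± 0.06 (SE, 1.12-fold) for KO/Y over fl-/Y−Tx, 0.12 for KO/Y over fl-/Y+Tx and 0.05 for fl-/Y+Tx over fl-/Y−Tx.

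Id2 (NM_010496, chr12:25778904-25778963, mm9) differed mostly at 4 days. Its signal was 0.68, 0.76 and 0.71 in KO/Y cells, 0.63, 0.45 and 0.70 in fl-/Y+Tx cells and 0.04, 0.12 and 0.11 in fl-/Y−Tx cells. Both deleted groups lay above all fl-/Y−Tx arrays and overlapped each other. The log2 fold change was 0.62 ± 0.08 (SE, 1.54-fold) for KO/Y over fl-/Y−Tx, 0.12 for KO/Y over fl-/Y+Tx and 0.50 (1.42-fold) for fl-/Y+Tx over fl-/Y−Tx, so of the 7 genes Id2 and Bmp4 had the largest differences at 4 days.

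Id3 (NM_008321, chr4:135700075-135700249, mm9, a span of over 60 bases for a single probe) was at 3.77, 3.76 and 3.69 in KO/Y cells, 3.48, 3.63 and 3.60 in fl-/Y+Tx cells and 3.29, 3.41 and 3.44 in fl-/Y−Tx cells. The groups did not overlap, with fl-/Y+Tx cells between the other groups. Its log2 fold change was 0.36 ± 0.07 (SE, 1.28-fold) for KO/Y over fl-/Y−Tx, 0.17 for KO/Y over fl-/Y+Tx and 0.19 for fl-/Y+Tx over fl-/Y−Tx. With the slide as a term the first was 0.23 and the last 0.10.

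**Figure D2:**
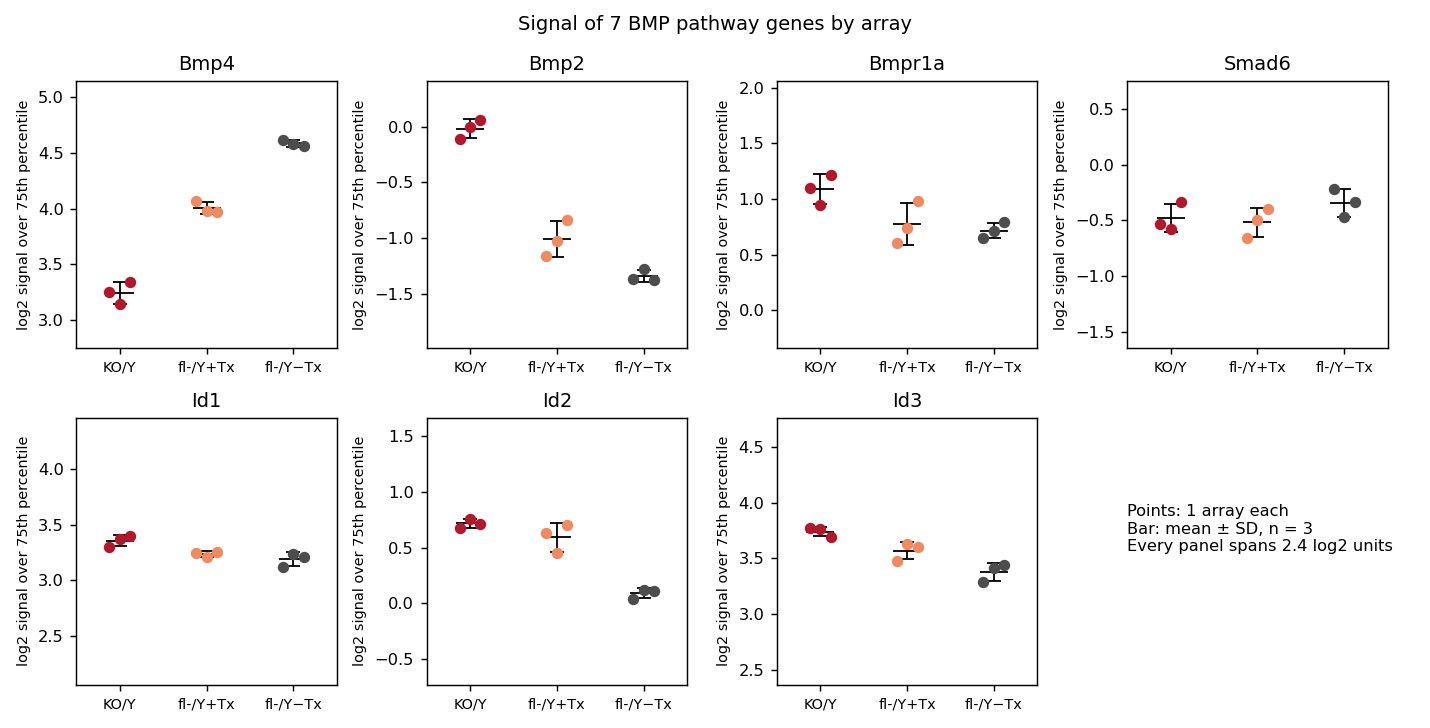
Signal of 7 genes in log2 units over each array's 75th percentile, with 1 point per array and the mean ± SD of 3 arrays for KO/Y, fl-/Y+Tx and fl-/Y−Tx cells, in panels with different zero points but the same span. Bmp4 averages 3.25 in KO/Y, 4.01 in fl-/Y+Tx and 4.58 in fl-/Y−Tx cells, and Bmp2 runs the other way. Between KO/Y and fl-/Y−Tx cells the Id genes differ by less than either ligand.

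Counted over the fit of all genes, 5 members were higher past the adjusted p threshold of 0.05 in KO/Y over fl-/Y−Tx cells (Bmp2, Bmpr1a, Id1, Id2, Id3), where 20.5% of all tested genes were higher, and 1 was lower (Bmp4), where 26.4% were lower. With a change of over 2-fold as well, these were 1 higher (Bmp2, 4.72% of all genes) and 1 lower (Bmp4, 2.84%). In KO/Y over fl-/Y+Tx cells, Bmp2 was higher (12.1% of all genes) and Bmp4 lower (14.1%), and neither was past 2-fold (2.37% of all genes higher, 1.05% lower). In fl-/Y+Tx over fl-/Y−Tx cells, Bmp2 and Id2 were higher (11.9% of all genes) and Bmp4 lower (14.7%), none past 2-fold (1.75% higher, 0.762% lower). The genes were chosen for these values, so nothing is read from the counts. The 3 comparisons share arrays and are not separate evidence for each other. With the slide as a term, 2 members (Bmp2, Id2) were higher and 1 (Bmp4) lower in KO/Y over fl-/Y−Tx cells. Of all 22443 genes, 2150 were then higher and 2750 lower. In fl-/Y+Tx over fl-/Y−Tx cells 1 member (Id2) was higher and 1 (Bmp4) lower, where 1067 of all genes were higher and 1164 lower.

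**Figure D3:**
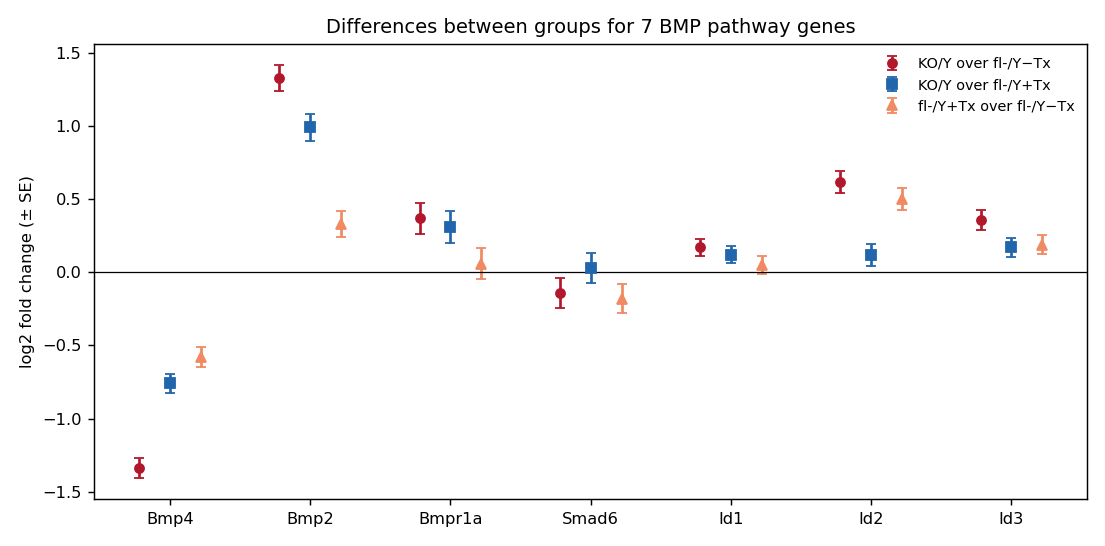
Log2 fold change ± SE (limma, all 9 arrays) of 7 genes for KO/Y over fl-/Y−Tx, KO/Y over fl-/Y+Tx and fl-/Y+Tx over fl-/Y−Tx cells. Bmp4 lies at -1.34 and Bmp2 at 1.33 for KO/Y over fl-/Y−Tx cells, and the Id genes at 0.17, 0.62 and 0.36.

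Genes whose signal ran most like that of a member were ranked by Pearson's r over the 9 arrays among 13521 genes detected on each of them. The 9 arrays fall into 3 groups and share their slides, so r mostly follows the group means and no p is given. Socs2 was most like Bmp4 (r = 0.997), at a mean of 0.09 in KO/Y, 1.37 in fl-/Y+Tx and 2.41 in fl-/Y−Tx cells, followed by Patl2 and Ina (both 0.996). Otor was most like Bmp2 (r = 0.995, at -0.37 in KO/Y, -1.44 in fl-/Y+Tx and -1.74 in fl-/Y−Tx cells), followed by Mfap2 and Hormad1 (both 0.994). For Id1 the order was Mtarc2 (r = 0.985, at 4.35 in KO/Y, 4.00 in fl-/Y+Tx and 3.83 in fl-/Y−Tx cells), Bcl2l15 (0.984) and Hdhd3 (0.979).

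Among the 67 other pathway genes tested, 27 rose and 14 fell in KO/Y over fl-/Y−Tx cells, 18 rose and 7 fell in KO/Y over fl-/Y+Tx cells, and 11 rose and 7 fell in fl-/Y+Tx over fl-/Y−Tx cells. As shares these were 40.3% higher and 20.9% lower in KO/Y over fl-/Y−Tx cells (20.5% and 26.4% of all genes), 26.9% and 10.4% in KO/Y over fl-/Y+Tx cells (12.1% and 14.1% of all genes), and 16.4% and 10.4% in fl-/Y+Tx over fl-/Y−Tx cells (11.9% and 14.7% of all genes). Their median log2 fold changes were 0.13, 0.14 and -0.02 in these comparisons. The counts by role below are to be read beside the same all-gene shares, and each role holds few genes. The other 26, 42 and 49 genes did not pass the adjusted p threshold.

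Of 9 other ligands tested, 2 rose and 1 fell in KO/Y over fl-/Y−Tx cells, 3 rose and 1 fell in KO/Y over fl-/Y+Tx cells, and none rose and 2 fell in fl-/Y+Tx over fl-/Y−Tx cells (limma, with 0 rises at an unadjusted p under 0.05 as well). The 2 rises in KO/Y over fl-/Y−Tx cells were 22.2% of the ligands, against 20.5% of all genes. Gdf3, a ligand of the same superfamily that ES cells make, fell in KO/Y over fl-/Y−Tx cells (log2 fold change -1.02 ± 0.06, adjusted p = 6.11e-06) and in fl-/Y+Tx over fl-/Y−Tx cells (-0.58 ± 0.06, adjusted p = 0.000487). Its signal was 3.33, 3.41 and 3.34 in KO/Y cells, 3.75, 3.88 and 3.80 in fl-/Y+Tx cells and 4.33, 4.46 and 4.36 in fl-/Y−Tx cells, so its 3 groups lay apart in the same order as those of Bmp4. A second Gdf3 probe differed by less, at -0.45 and -0.36 in these comparisons. Bmp7 and Bmp8b, ligands that share type I receptors with Bmp4, rose in KO/Y over fl-/Y+Tx cells by 0.62 ± 0.13 (adjusted p = 0.0089) and 0.66 ± 0.16 (adjusted p = 0.0156). The adjusted p of Bmp8b was 0.115 within the shared slide and 0.0502, 0.0517 and 0.0517 without KO/Y replicate 2, KO/Y replicate 3 and fl-/Y+Tx replicate 1. Gdf9, known as an oocyte factor, rose by 0.76 ± 0.14 in KO/Y over fl-/Y+Tx cells (adjusted p = 0.00421) and fell by 0.64 ± 0.14 in fl-/Y+Tx over fl-/Y−Tx cells (adjusted p = 0.0102, and 0.0643 within the shared slide).

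Of 16 antagonists and other extracellular regulators tested, more rose than fell in each comparison. In this list, which also holds chordin proteases, 12 rose and 1 fell in KO/Y over fl-/Y−Tx cells (median log2 fold change 0.60, against -0.06 over all genes), 7 rose and 1 fell in KO/Y over fl-/Y+Tx cells (median 0.25, against 0.01), and 9 rose and none fell in fl-/Y+Tx over fl-/Y−Tx cells (median 0.38, against -0.06; limma, with 2 falls at an unadjusted p under 0.05). The rises were 75%, 43.8% and 56.2% of the list, against 20.5%, 12.1% and 11.9% of all genes. Cer1, a secreted antagonist of Nodal and BMP that anterior visceral endoderm makes, was at -3.03, -3.42 and -2.47 in KO/Y cells and was not well above background in either other group. It was at least 2.28-fold higher in KO/Y than in fl-/Y−Tx cells (adjusted p = 2.57e-05) and at least 2.22-fold higher than in fl-/Y+Tx cells (adjusted p = 8.60e-05). Both adjusted p-values belong to the differences as measured and not to the bounds.

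Grem1, a secreted protein that traps BMP2 and BMP4, was the 1 antagonist with a lower level in KO/Y than in fl-/Y+Tx cells past the threshold. Its signal was 2.51, 2.36 and 2.44 in KO/Y cells, 2.62, 2.71 and 2.69 in fl-/Y+Tx cells and 1.62, 1.56 and 1.68 in fl-/Y−Tx cells. It rose by 1.06 ± 0.06 in fl-/Y+Tx over fl-/Y−Tx cells (adjusted p = 1.59e-05) and was lower in KO/Y than in fl-/Y+Tx cells by a log2 fold change of -0.24 ± 0.06 (adjusted p = 0.0283). That difference missed the threshold within the shared slide (adjusted p = 0.129) and without KO/Y replicate 2 (0.0869), KO/Y replicate 3 (0.072), fl-/Y+Tx replicate 2 (0.092) or fl-/Y+Tx replicate 3 (0.0573). Follistatin (Fst), which binds activins and some BMPs, was at 4.04, 3.85 and 3.95 in KO/Y cells, 3.47, 3.49 and 3.60 in fl-/Y+Tx cells and 3.08, 3.12 and 3.07 in fl-/Y−Tx cells. Its rises were 0.86 ± 0.07 in KO/Y over fl-/Y−Tx cells (adjusted p = 2.46e-05) and 0.43 ± 0.07 in fl-/Y+Tx over fl-/Y−Tx cells (adjusted p = 0.00307, and 0.0585 within the shared slide). Its relative Fstl3 rose by 1.09 ± 0.07, 0.55 ± 0.07 and 0.54 ± 0.07 in KO/Y over fl-/Y−Tx, KO/Y over fl-/Y+Tx and fl-/Y+Tx over fl-/Y−Tx cells (adjusted p = 4.86e-06, 0.000565 and 0.000779).

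Bmper, a secreted BMP-binding protein, rose by 1.16 ± 0.10 in KO/Y over fl-/Y−Tx cells (adjusted p = 3.72e-05) and by 0.71 ± 0.10 in fl-/Y+Tx over fl-/Y−Tx cells (adjusted p = 0.00163). Sostdc1, an antagonist of BMP and Wnt ligands, rose by 0.89 ± 0.14 in KO/Y over fl-/Y−Tx cells (adjusted p = 0.000951) and by 0.49 ± 0.14 in KO/Y over fl-/Y+Tx cells (adjusted p = 0.0335, and 0.0551 within the shared slide, and 0.0529 to 0.102 without KO/Y replicate 1 or 3 or fl-/Y+Tx replicate 2 or 3). A second Sostdc1 probe differed by less, at 0.41 and 0.34 in these comparisons (limma, adjusted p = 0.127 and 0.264 over detected probes). In fl-/Y+Tx over fl-/Y−Tx cells, the BMP-binding membrane protein Crim1 rose by 0.56 ± 0.10 (adjusted p = 0.00434, and 0.072 within the shared slide) and Bmp1, a protease that cuts the antagonist chordin, by 0.41 ± 0.05 (adjusted p = 0.00107, and 0.054 within the shared slide). Of the 3 Bmp1 probes, 1 was at -0.13. Fibroblast markers differed the same way between these groups (671 to 708 in KO/Y, 569 to 597 in fl-/Y+Tx and 455 to 476 in fl-/Y−Tx cells), and endoderm markers were highest in KO/Y cells. Their part in these rises was not tested.

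Receptors and co-receptors, 9 tested, gave 5 rises and 3 falls in KO/Y over fl-/Y−Tx cells, 1 rise and 2 falls in KO/Y over fl-/Y+Tx cells, and 2 rises and 1 fall in fl-/Y+Tx over fl-/Y−Tx cells. In KO/Y over fl-/Y−Tx cells this was 55.6% higher and 33.3% lower, against 20.5% and 26.4% of all genes, and in KO/Y over fl-/Y+Tx cells 11.1% and 22.2%, against 12.1% and 14.1%. Acvr2b, a type II receptor for activins and BMPs, was at 3.14, 3.24 and 3.29 in KO/Y cells, 3.61, 3.62 and 3.66 in fl-/Y+Tx cells and 4.19, 4.04 and 4.09 in fl-/Y−Tx cells. It fell by 0.88 ± 0.07 in KO/Y over fl-/Y−Tx cells (adjusted p = 1.57e-05) and by 0.48 ± 0.07 in fl-/Y+Tx over fl-/Y−Tx cells (adjusted p = 0.00134, and 0.0583 within the shared slide). Endoglin (Eng), an endothelial co-receptor, rose by 0.70 ± 0.07 in KO/Y over fl-/Y+Tx cells (adjusted p = 0.000227), and the type I receptor Bmpr1b fell by 0.66 ± 0.13 in the same comparison (adjusted p = 0.00624). Rgmb, a co-receptor for BMP2 and BMP4, rose by 0.89 ± 0.08 in KO/Y over fl-/Y−Tx cells (adjusted p = 5.27e-05) and by 0.68 ± 0.08 in fl-/Y+Tx over fl-/Y−Tx cells (adjusted p = 0.000791). A second Rgmb probe was near background, above it on 5 of 9 arrays, and did not show this, with -0.33 in fl-/Y+Tx over fl-/Y−Tx cells.

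Of 17 Smads and intracellular regulators tested, 3 rose and 6 fell in KO/Y over fl-/Y−Tx cells, 3 rose and 2 fell in KO/Y over fl-/Y+Tx cells, and none rose and 2 fell in fl-/Y+Tx over fl-/Y−Tx cells (limma, with 0 rises at an unadjusted p under 0.05 as well). In KO/Y over fl-/Y−Tx cells this was 17.6% higher and 35.3% lower, against 20.5% and 26.4% of all genes. Skil (SnoN), a corepressor of Smad-driven transcription, was at 0.32, 0.22 and 0.27 in KO/Y cells, 1.37, 1.30 and 1.5 in fl-/Y+Tx cells and 1.5, 1.47 and 1.53 in fl-/Y−Tx cells. It fell by 1.23 ± 0.07 in KO/Y over fl-/Y−Tx cells (adjusted p = 2.86e-06) and by 1.12 ± 0.07 in KO/Y over fl-/Y+Tx cells (adjusted p = 1.69e-05), on 2 probes. Zfp423, a DNA-binding partner of the BMP Smads, fell by 0.95 ± 0.10 (adjusted p = 9.75e-05) and 0.98 ± 0.10 (adjusted p = 0.000245) in these comparisons. The Smads themselves were named for their place in the pathway with their values known. Smad1 was at -0.37 ± 0.14 in KO/Y over fl-/Y−Tx cells (adjusted p = 0.0607), Smad5 rose by 0.43 ± 0.11 (adjusted p = 0.00921), Smad4 fell by 0.17 ± 0.06 (adjusted p = 0.0498), and Smad7, the partner of Smad6 in feedback, fell by 0.58 ± 0.10 (adjusted p = 0.00172). With the slide as a term the adjusted p was 0.395 for Smad5 and 0.291 for Smad4, and with the mean of its probes Smad5 was at 0.12 (adjusted p = 0.444), its second probe being at -0.20. Smad4 also missed the threshold on leaving out any KO/Y array or fl-/Y−Tx replicate 2 or 3 (adjusted p = 0.0631 to 0.17).

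Of 13 other target genes, 5 rose and 2 fell in KO/Y over fl-/Y−Tx cells, 4 rose and none fell in KO/Y over fl-/Y+Tx cells, and none rose and 1 fell in fl-/Y+Tx over fl-/Y−Tx cells. At an unadjusted p under 0.05 (limma) these zeros were 0 falls and 1 rise. The shares were 38.5% higher and 15.4% lower in KO/Y over fl-/Y−Tx cells, against 20.5% and 26.4% of all genes, and 30.8% higher in KO/Y over fl-/Y+Tx cells, against 12.1%. Hey1, a transcriptional repressor that both Notch and BMP signals induce in endothelial cells, was at -2.39, -2.51 and -2.47 in KO/Y cells, -2.40, -2.33 and -1.64 in fl-/Y+Tx cells and -0.76, -1.09 and -1.01 in fl-/Y−Tx cells. It fell by 1.51 ± 0.19 in KO/Y over fl-/Y−Tx cells (adjusted p = 0.000263) and by 1.17 ± 0.19 in fl-/Y+Tx over fl-/Y−Tx cells (adjusted p = 0.00294). Dusp9, a phosphatase of ERK that BMP induces in mouse ES cells, was at 1.30, 1.31 and 1.25 in KO/Y cells, 0.69, 0.61 and 0.59 in fl-/Y+Tx cells and 0.66, 0.75 and 0.73 in fl-/Y−Tx cells, a rise of 0.65 ± 0.06 in KO/Y over fl-/Y+Tx cells (adjusted p = 0.000127). Gata3 rose by 0.45 ± 0.14 in KO/Y over fl-/Y+Tx cells (adjusted p = 0.0438, and 0.132 within the shared slide, and 0.0655 to 0.112 without KO/Y replicate 1 or 3 or any 1 fl-/Y+Tx array).

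Cdx2, which is also on the trophectoderm list, rose by 1.04 ± 0.34 in KO/Y over fl-/Y−Tx cells (adjusted p = 0.0315), but was well above background on all 3 KO/Y arrays and on only 1 of 3 arrays in each other group. The size of this rise hung on dim signals. With a floor on low signals Cdx2 was at 0.14 (limma, adjusted p = 0.117), and after normexp background correction at 0.23 (adjusted p = 0.0936). Its adjusted p was 0.631 with the slide as a term, and 0.0959 without fl-/Y−Tx replicate 1, 0.0713 without fl-/Y−Tx replicate 3, 0.0862 without KO/Y replicate 2 and 0.0853 without KO/Y replicate 3. Trophectoderm markers summed to 19.5 to 20.9 in KO/Y (mostly Krt8 and Krt18), 6.21 to 6.59 in fl-/Y+Tx and 6.75 to 7.30 in fl-/Y−Tx cells. Their part in the level of Cdx2 was not tested. Id4, the remaining Id gene, was at -0.01 ± 0.11 in KO/Y over fl-/Y−Tx cells (adjusted p = 0.948), 0.10 in KO/Y over fl-/Y+Tx cells (adjusted p = 0.555) and -0.11 in fl-/Y+Tx over fl-/Y−Tx cells (adjusted p = 0.488). Of the 3 E proteins that Id proteins bind, Tcf3 (E2A) fell in KO/Y over fl-/Y−Tx cells by 0.55 ± 0.07 (adjusted p = 0.000232) and in fl-/Y+Tx over fl-/Y−Tx cells by 0.31 ± 0.07 (adjusted p = 0.0118, 0.118 within the shared slide and 0.0521 without fl-/Y−Tx replicate 2), whereas Tcf4 and Tcf12 were at 0.16 and -0.53 in KO/Y over fl-/Y−Tx cells (adjusted p = 0.216 and 0.126). Id4 and the E proteins were named with their values known.

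**Figure D4:**
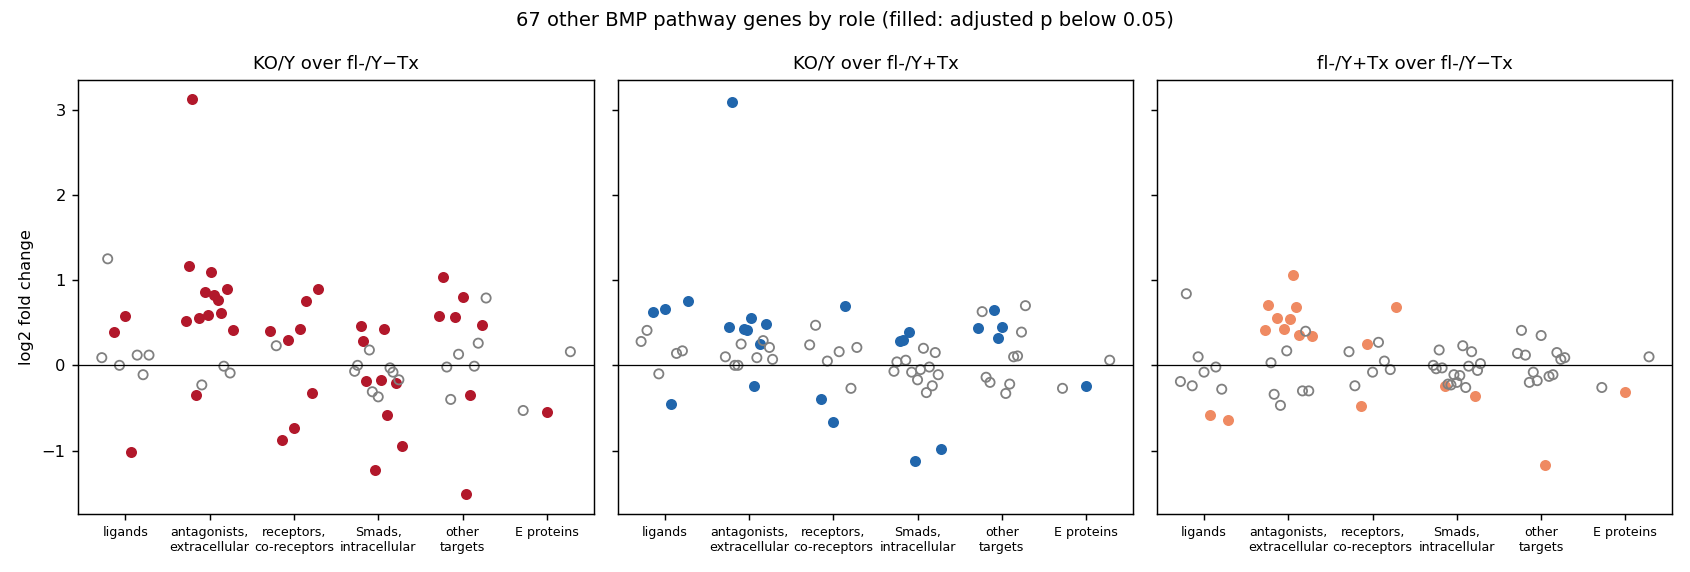
Log2 fold change of 67 other BMP pathway genes by role, 1 point per gene, for KO/Y over fl-/Y−Tx, KO/Y over fl-/Y+Tx and fl-/Y+Tx over fl-/Y−Tx cells, where filled points passed the adjusted p threshold of 0.05 (limma over 22443 genes) and open points did not. Among 16 antagonists and other extracellular regulators, 12 rose in KO/Y over fl-/Y−Tx cells, 7 in KO/Y over fl-/Y+Tx cells and 9 in fl-/Y+Tx over fl-/Y−Tx cells.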

How the data were processed

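Single-colour Agilent arrays (Cy3) of 9 ES cell RNA samples, 3 per group, were used. The authors extracted the deposited intensity values with Agilent Feature Extraction 10.7.3.1; per the file headers, background was subtracted and spatially detrended, with no normalization between arrays, and probe coordinates are on mm9. The labels give the group of each array but not which array is which replicate, so arrays are numbered in file order. A deposited table of 1 linear intensity per group was used only to check scale, and 0 columns of other samples were left out.

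Each array's log2 processed signal was centred on its 75th percentile. Outlier and control spots were left out and spots of a probe averaged. A gene was read from its brightest probe and tested where that probe was well above background on all arrays of at least 1 group. Groups were compared with limma 3.58.1 (R 4.3.3, lmFit and eBayes over all 9 arrays). The p-values were adjusted by Benjamini-Hochberg over 22443 genes, or over detected probes for Nr0b1 and the second Sostdc1 probe. The threshold was 0.05. Named were all members, per comparison at most 12 pathway genes past the threshold by size of change, and 3 genes most like Bmp4, Bmp2 and Id1. A pathway gene named by this rule is not reported here. The members and gene lists were chosen with earlier results of these data known. Code was tested on simulated data. The number of arrays limits the precision. Alternatives covered background correction, scaling, dim probes, probe choice, slide, variance and left-out arrays.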

Additional observations from a re-analysis of the deposited data

How the results depend on the processing

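The counts of pathway genes past the adjusted p threshold depended most on the slide. With the slide as a term, 13 genes rose and 8 fell in KO/Y over fl-/Y−Tx cells (27 and 14 without it), and 5 rose and 4 fell in fl-/Y+Tx over fl-/Y−Tx cells (11 and 7 without it). The counts over all 22443 genes dropped as well. In KO/Y over fl-/Y−Tx cells they were 2150 rises and 2750 falls (4610 and 5923 without the term). In fl-/Y+Tx over fl-/Y−Tx cells they were 1067 and 1164 (2678 and 3302 without it). On the arrays of the slide that holds both groups, with fewer arrays fitted, 6 genes rose in KO/Y over fl-/Y+Tx cells (18 in all arrays). Over all genes, 1453 rose there (2710 in all arrays). With no filter on dim probes, which raises the number of genes tested to 35019, 9 genes fell in KO/Y over fl-/Y−Tx cells, where 5074 of all genes fell. Leaving out 1 array at a time gave 24 to 28 rises and 9 to 12 falls in KO/Y over fl-/Y−Tx cells (9 without fl-/Y−Tx replicate 3). Over all genes these were 4023 to 4364 and 4927 to 5511. KO/Y over fl-/Y+Tx cells had 11 to 17 rises and 5 to 8 falls (11 without fl-/Y+Tx replicate 2). Over all genes these were 1943 to 2907 and 2484 to 2928. For fl-/Y+Tx over fl-/Y−Tx cells there were 9 to 10 rises and 5 to 8 falls, with 1952 to 2249 and 1867 to 3122 over all genes. The cause of these differences was not tested.

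Of 392 values of the 7 members under the alternatives, 374 lay within 1 SD of the reported value and 18 moved by more. None changed sign where the reported value was larger than 1 SD. Smaller ones did: Bmpr1a ran from -0.10 to 0.14 in fl-/Y+Tx over fl-/Y−Tx cells, and Smad6 from -0.04 to 0.09 in KO/Y over fl-/Y+Tx cells. Bmp4 ran from -1.39 to -1.25 and Bmp2 from 0.99 to 1.37 in KO/Y over fl-/Y−Tx cells; Bmp2 was lowest after normexp background correction. Past the threshold, Bmp2 in fl-/Y+Tx over fl-/Y−Tx cells was lost on leaving out any 1 array other than fl-/Y+Tx replicate 1. In KO/Y over fl-/Y−Tx cells Id1 was lost without KO/Y replicate 2 or 3 or any 1 fl-/Y−Tx array, and Bmpr1a without KO/Y replicate 1 or 3 or fl-/Y−Tx replicate 1 or 2. No paired analysis was possible because the sources do not say which array holds which labelled replicate.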
